A study of Mus musculus with 9 samples.

Results

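The genes described here are 10 mouse genes for chaperones and protein disulfide isomerases of the endoplasmic reticulum (ER), namely Hspa5, Hyou1, Dnajb11, Hsp90b1, Canx, Calr, Pdia3, P4hb, Pdia4 and Pdia6. They were found by NCBI Gene number among the 27179 gene identifiers of a table of read counts from RNA immunoprecipitation sequencing, in which a protein is pulled from a lysate and the RNA attached to it is sequenced. All 10 passed the filter on low counts that left 13129 genes. The cells in all 3 groups were CD43- B cells from the spleen of wild-type mice, and carried no engineered allele by their labels. They had been activated for 72 h, per the labels with CD40L (5 ug/mL), anti-IgM antibody (10 ug/mL) and IL-4 (20 ng/mL). Where the labels have CD40L, the methods of the study have anti-CD40 antibody. The labels give no age, and the methods describe the mice of the whole study as age-matched adults of both sexes. RNA was sequenced from the cell lysate itself (input), from a precipitate with normal rabbit IgG (IgG) and from a precipitate with antibody to the phosphorylated form of UPF1 (p-UPF1), with 3 libraries in each group. The methods of the study call the points in its graphs independent biological replicates, while nothing in the labels ties a library to its own animal or culture, so P values measure the spread between these libraries.

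The ER folds proteins that enter it during translation, and activated B cells enlarge this machinery before they secrete antibody. Hspa5 encodes BiP, the ER member of the Hsp70 family, which binds unfolded chains and also holds the stress sensors of the ER in check. Calnexin and calreticulin hold glycoproteins through their sugars, disulfide isomerases make and rearrange disulfide bonds, and the unfolded protein response raises the transcription of most of these genes. UPF1 is an RNA helicase of nonsense-mediated mRNA decay (NMD), which acts where translation ends, and its phosphorylation is part of the decay reaction. The comparisons below ask how the share of each mRNA in p-UPF1 libraries stood against its share in IgG libraries and in the lysate. All levels are relative to the other RNA of a library, and the amount of RNA recovered was not measured in these files.

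The promoters of several of these genes share the ER stress response element, read here as CCAAT, then any 9 bases, then CCACG, on either strand. An exact match was found in 5 of the 9 promoters available for the 10 genes, and in 39 of 32851 mouse promoters in all (0.119%). Each promoter ran from 250 bases before the gene start to 50 after it. These windows of GRCm38 sequence from RefSeq are shown because they are the feature the genes are known to share at the level of transcription, with the capitals marking the whole element on the strand where it reads CCAAT first.

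Hspa5, chr2:34772020-34772049, plus strand: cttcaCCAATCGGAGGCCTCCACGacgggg
Calr, chr8:84847070-84847099, plus strand: atgggCCAATGAGGGTCGACCACGcgttgt
Hsp90b1, chr10:86705632-86705661, minus strand: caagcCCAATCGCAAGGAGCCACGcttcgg
Canx, chr11:50325794-50325823, minus strand: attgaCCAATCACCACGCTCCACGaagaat
Pdia6, chr12:17266486-17266515, plus strand: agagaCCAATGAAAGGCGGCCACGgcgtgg

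The Hsp90b1 promoter held another match on the plus strand, at chr10:86705528-86705557. The element of Calr lay on the strand opposite to the gene. Dnajb11 lacked this element but held the related ERSE-II (ATTGG, any base, CCACG), which 12 of the 32851 promoters held (0.0365%). No promoter of Hyou1 was in the table used, and the windows of P4hb, Pdia3 and Pdia4 held neither string of letters.

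Because UPF1 acts at the stop codon, the ends of the reading frames are shown for the 2 genes that were higher in p-UPF1 libraries than in both other groups and for the 2 that were lowest against IgG. The lower case letters are the last 5 codons, among which in soluble ER proteins are those for the signal for return to the ER, and the capitals mark the stop codon.

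P4hb: gtgaaggatgaactgTAG
Hyou1: aagaacgatgaactaTAA
Pdia3: gcacaagaggacctcTAA
Pdia6: gagaaggatgagttgTGA

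Over all 10 genes the stop codon was TAA in 4, TAG in 4 and TGA in 2. TAA closed the frame of Hyou1 as well as that of Pdia3.

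The libraries held from 17372510 to 24945286 counts each, and the lowest count of any of the 10 genes in any library was 2651, for Pdia4 in a p-UPF1 library. Every pair of replicates differed by more than sampling noise, with a chi-square per degree of freedom of 1.38 to 9.94 and the highest values among IgG libraries. All 6 B cell markers examined were expressed, with a summed level per library of 3119 to 3183 CPM (counts per 1000000) in input. In IgG libraries they summed to between 2636 and 2799 and in p-UPF1 libraries to between 2275 and 2365. Of the 5 plasma cell markers, 4 were tested and nearly all of their sum was Irf4, which is also expressed in activated B cells, and whose sum was higher after precipitation. It lay between 502 and 536 CPM in input libraries, between 665 and 788 in those of IgG, and between 1410 and 1455 in those of p-UPF1. Of the 4 tested, 2 were called higher and 2 lower in p-UPF1 than in IgG libraries. T cell and erythroid markers summed to less than 1 CPM in every library. Of the 6 myeloid markers only Adgre1 was tested, and the list summed to between 125 and 137 CPM in input libraries, 90.9 and 99.2 in those of IgG, and 54.4 and 56.7 in those of p-UPF1. The part of these markers in the results below was not tested. By the methods of the study, input was a part of the cell lysate and the rest was incubated with the antibodies. Differences between the groups are thus between fractions of lysate. For a level in the lysate itself, the number of cells expressing a gene and the RNA per cell cannot be told apart.

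In the lysate these were abundant mRNAs. Together the 10 genes took 0.588% ± 0.0101 (SD, n = 3) of the counts of input libraries, 0.546% ± 0.00758 of those of IgG libraries and 0.320% ± 0.0126 of those of p-UPF1 libraries. Their share in p-UPF1 libraries was 0.586 times that in IgG and 0.544 times that in input, and the groups did not overlap. IgG libraries also lay below input, at 0.929 times its share. Each of these 3 differences had an exact two-sided permutation P of 0.1, the smallest that 3 libraries against 3 can give.

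Levels can be set against each other between genes only per length, and here CPM scaled by TMM factors (trimmed mean of M values) was divided by kilobases of annotated exon. In input, Hspa5 was highest with 503 ± 17.1 CPM per kb (SD, n = 3). Calr followed with 366 ± 1.42 and Hsp90b1, the ER member of the Hsp90 family, with 365 ± 8.97, and the libraries of these 2 genes overlapped. Then came Canx at 234, Pdia3 at 223, Pdia6 at 159, Pdia4 at 109, P4hb at 84.6, Dnajb11 at 61.9 and Hyou1 at 58.1, each without overlap with its neighbour.

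The order in p-UPF1 libraries was another one. Hspa5 (208 ± 5.77 CPM per kb), Canx (198 ± 8.77) and Hsp90b1 (194 ± 17.6) overlapped as the first 3, ahead of Calr at 136. P4hb, at 91.5, had moved from rank 8 in input to rank 5, and Hyou1, at 78.3, from rank 10 to rank 6. Pdia3, at 57.3, had moved from rank 5 to rank 8. In IgG libraries the first 8 genes stood in nearly the input order, except that Hsp90b1 (340 CPM per kb) lay above Calr (248), and only P4hb (60.4) and Hyou1 (57.8) overlapped as neighbours.

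**Figure D1:**
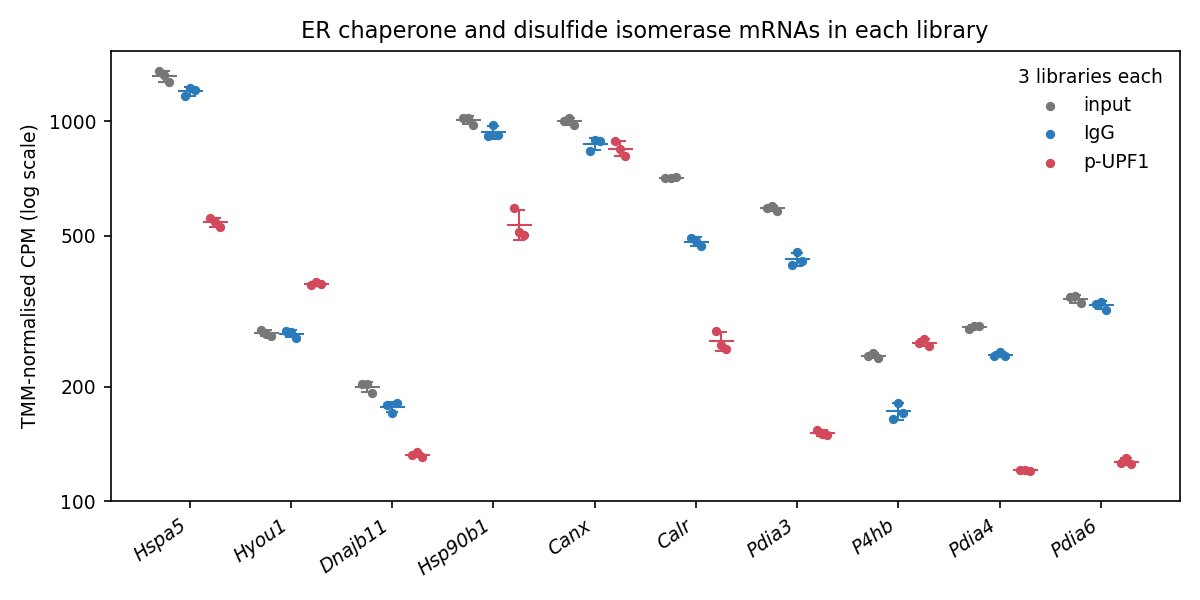
Level of each of the 10 mRNAs in TMM-normalised CPM on a log scale, for 3 input (grey), 3 IgG (blue) and 3 p-UPF1 (red) libraries, where each point is a library and bars give the mean and SD. The p-UPF1 points lie below both other groups for 7 genes, above both for P4hb and Hyou1, and overlap the IgG points for Canx.

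Set against normal IgG, 7 of the 10 mRNAs were lower in p-UPF1 libraries, 2 were higher and Canx did not pass the test. The 7 were Hspa5, Dnajb11, Hsp90b1, Calr, Pdia3, Pdia4 and Pdia6, and the 2 were P4hb and Hyou1. Over all 13129 genes tested, 42.2% were lower and 40.4% higher (edgeR, quasi-likelihood test, P adjusted by Benjamini-Hochberg), and 82.6% passed in either direction, so that a call as such was common and 7 of 10 lower stood above the general share. The median log2 fold change of the 10 genes was -0.84 and that of all genes -0.03. For 7 genes every p-UPF1 library lay below every IgG library (41.5% of all genes did), and for 2 every one lay above (40.6%).

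Among the BiP system, Hspa5 itself fell and its partner Hyou1 rose. Hspa5 stood at 1166, 1223 and 1211 CPM in IgG libraries A, B and C, at 1356, 1322 and 1267 in input, and at 558, 544 and 528 in p-UPF1 libraries. The p-UPF1 libraries were all low and close together, far from both other groups. The log2 fold change of p-UPF1 over IgG was -1.14 (SE 0.039, edgeR with Benjamini-Hochberg, adjusted P = 5.48e-14), or 0.453 times the IgG level.

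Hyou1 encodes a large Hsp70-related protein that exchanges the nucleotide of BiP. Its level was 280.0, 279 and 269 CPM in IgG, 283, 276 and 272 in input, and 370.5, 379 and 372 in p-UPF1 libraries A, B and C. All p-UPF1 libraries were high, and the IgG and input libraries overlapped. Over IgG the log2 fold change was 0.44 (SE 0.037, edgeR with Benjamini-Hochberg, adjusted P = 8.93e-09). It was nearly the same over input, at 0.43. Dnajb11, a J-domain cochaperone that hands clients to BiP, stood at 179, 171 and 182 CPM in IgG, 203, 204 and 193 in input, and 132, 135 and 131 in p-UPF1 libraries. It was lower in every p-UPF1 library, by less than Hspa5, with a log2 fold change of -0.42 over IgG (SE 0.041).

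Hsp90b1 encodes GRP94, which matures a restricted set of clients such as integrins and Toll-like receptors. Its level was 914, 978.5 and 919.6 CPM in IgG, 1023, 1019 and 978 in input, and 591, 513 and 502 in p-UPF1 libraries. It had the widest spread of the 10 genes in p-UPF1 libraries, with library A above B and C, but none reached the IgG range. The log2 fold change over IgG was -0.81 (SE 0.054).

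The lectin chaperones, which share the task of folding glycoproteins, differed from each other. Canx, the membrane-bound calnexin, stood at 838, 894 and 887 CPM in IgG, 1005, 1021 and 979.5 in input, and 887, 846 and 812 in p-UPF1 libraries. Its p-UPF1 and IgG libraries overlapped, with a log2 difference of -0.04 (95% interval -0.14 to 0.06, edgeR with Benjamini-Hochberg, adjusted P = 0.355). With libraries scaled by their totals alone, Canx was called lower over IgG at -0.20 (edgeR with Benjamini-Hochberg, adjusted P = 0.000131), at upper-quartile scaling at -0.18 and with an input library as the TMM reference at -0.13. Calr, the soluble calreticulin, stood at 494.5, 484 and 469 CPM in IgG, 709, 708 and 713 in input, and 281, 259 and 252 in p-UPF1 libraries. All 3 groups were apart, and the log2 fold change over IgG was -0.87 (SE 0.043).

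The disulfide isomerases held both ends of the range. Pdia3 (ERp57), which works with calnexin and calreticulin on glycoproteins, had the largest fall of the 10 genes. It stood at 418, 452 and 430.3 CPM in IgG, 593.5, 597 and 580.3 in input, and 154, 151 and 149 in p-UPF1 libraries. The p-UPF1 libraries kept 0.349 times the IgG level, with a log2 fold change of -1.52 (SE 0.040, edgeR with Benjamini-Hochberg, adjusted P = 2.38e-15). P4hb encodes the founding protein disulfide isomerase, which is also a subunit of collagen prolyl 4-hydroxylase. It stood at 165, 182 and 171 CPM in IgG, 242, 245 and 239 in input, and 261, 268 and 256.5 in p-UPF1 libraries. It rose most of the 10 genes over IgG, by a log2 fold change of 0.60 (SE 0.042, edgeR with Benjamini-Hochberg, adjusted P = 9.26e-10), and its input libraries lay between the other groups.

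Pdia4 (ERp72), with an additional catalytic domain, stood at 242, 247 and 241 CPM in IgG, 284, 289 and 290.3 in input, and 121, 121 and 120.2 in p-UPF1 libraries. Pdia6, an isomerase that associates with BiP, stood at 331, 334 and 319 CPM in IgG, 345, 347 and 332 in input, and 126, 130.3 and 125 in p-UPF1 libraries. In both genes the p-UPF1 libraries lay well below the rest. The log2 fold changes over IgG were -1.01 for Pdia4 (SE 0.037) and -1.37 for Pdia6 (SE 0.040).

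**Figure D2:**
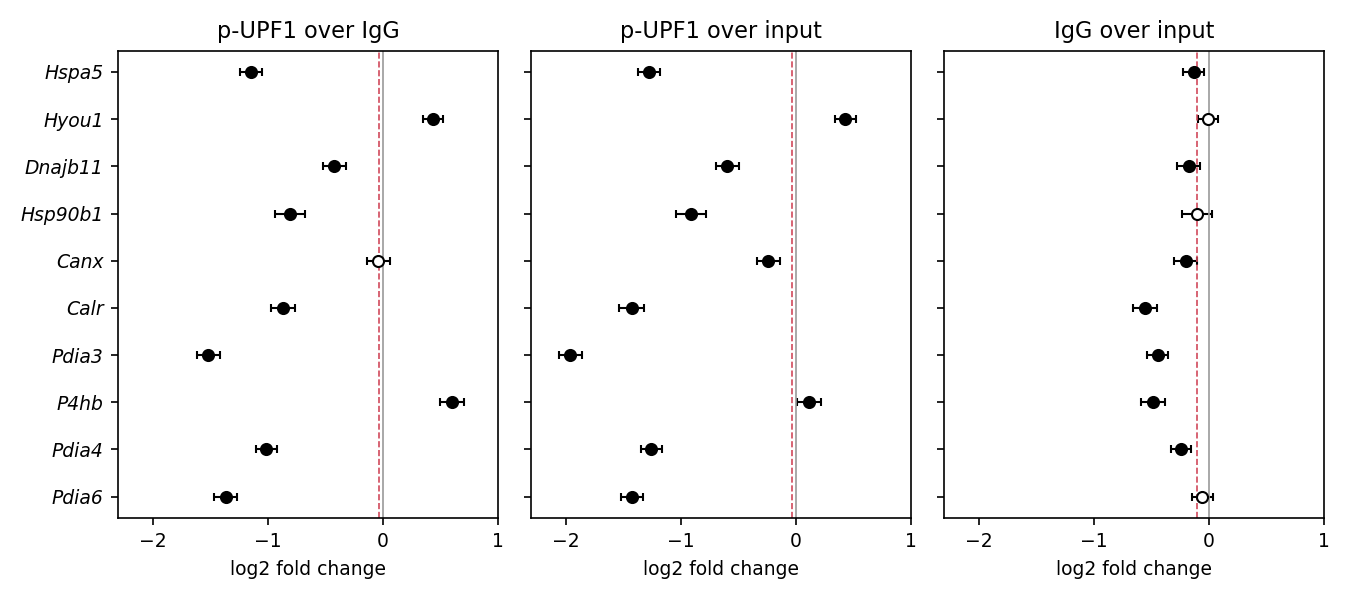
Log2 fold changes with 95% intervals for the 3 comparisons, where filled points have an adjusted P under 0.05, the grey line marks no difference and the dashed red line the median of all 13129 genes tested. P4hb (0.60) and Hyou1 (0.44) lie to the right of 0 over IgG, Canx (-0.04) lies on it, and the other 7 run from -0.42 for Dnajb11 to -1.52 for Pdia3.

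Set against the lysate, 8 of the 10 mRNAs were lower in p-UPF1 libraries and 2 were higher, where 42.6% of all genes tested were lower and 40.8% higher, 83.4% in all. This comparison shares its p-UPF1 libraries with the one over IgG, so it is not a separate measurement of them. The 8 were the 7 above and Canx, and the median log2 fold change of the 10 genes was -1.08 against -0.03 for all genes. The 8 had every p-UPF1 library below every input library (45% of all genes), and P4hb and Hyou1 had every one above (43.2%).

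Pdia3 was again the lowest, with a log2 fold change of -1.96 over input (SE 0.040, edgeR with Benjamini-Hochberg, adjusted P = 9.06e-17), which left 0.257 times the input level. Calr (-1.43), Pdia6 (-1.42), Hspa5 (-1.28) and Pdia4 (-1.26) followed, then Hsp90b1 (-0.91) and Dnajb11 (-0.60). For Canx the fall over input was small, with a log2 fold change of -0.24 (SE 0.041, edgeR with Benjamini-Hochberg, adjusted P = 4.45e-05).

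The rise of Hyou1 over input (log2 fold change 0.43, SE 0.037) was of the size seen over IgG. That of P4hb was smaller, at 0.11 (SE 0.042, edgeR with Benjamini-Hochberg, adjusted P = 0.0192). P4hb no longer passed when input library A (0.10, adjusted P = 0.0735), input library C (0.10, adjusted P = 0.0970) or p-UPF1 library B (0.10, adjusted P = 0.0836) was left out of the edgeR fit with Benjamini-Hochberg adjustment. Nor did it pass when libraries were scaled by their totals alone (0.07, adjusted P = 0.112) or by upper quartiles (0.05, adjusted P = 0.271), so that only Hyou1 was called higher over input in those fits.

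By the criterion of the study's methods, an RNA is bound to p-UPF1 when it passes the test in both comparisons and its log2 fold change reaches 1 over IgG as well as 2 over input. None of the 10 mRNAs met it (0 of 10), while 6.25% of all genes tested did. The count was also 0 with unadjusted P values under 0.05, in DESeq2 and in limma-voom. The gene that came nearest over IgG was P4hb with 0.60, and over input Hyou1 with 0.43. The fold change limits alone thus left out all 10 genes, and a looser P value could not have changed the count.

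The IgG precipitate itself differed from the lysate. In IgG libraries 7 of the 10 mRNAs were lower than in input and 0 were higher, against 34.7% lower and 18.2% higher over all genes tested, 52.9% in all. The unadjusted count of higher genes was also 0, as were those of DESeq2 and limma-voom. The median log2 fold change was -0.19 for the 10 genes and -0.10 for all genes. These IgG and input libraries also serve in the comparisons above.

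Calr (-0.56), P4hb (-0.49) and Pdia3 (-0.44) fell most from input to IgG, followed by Pdia4 (-0.24), Canx (-0.20), Dnajb11 (-0.18) and Hspa5 (-0.13). For these 7 every IgG library lay below every input library (38.5% of all genes), and for 0 every one lay above (19.6%). Hsp90b1 (-0.10), Pdia6 (-0.06) and Hyou1 (-0.01) did not pass, their groups overlapped, and each changed sign under some of the other scalings. Without p-UPF1 library A, which enters the shared estimate of spread, Hsp90b1 passed at the same -0.10 (edgeR with Benjamini-Hochberg, adjusted P = 0.0276). Part of this split moved with scaling. With library totals alone or an input library as the TMM reference, 4 genes were called lower (Calr, P4hb, Pdia3 and Pdia4) and Hyou1 was called higher, by 0.11 and 0.10 on the log2 scale, while the share of all calls that were higher went from 34.4% to 52.6% and 51.2%.

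A ratio within a library does not depend on how libraries are scaled, so the counts of each gene were also taken as a percent of the summed counts of all 10. Since these percents add up to the whole, a fall in some genes raises the others. Canx rose from 17.04% ± 0.361 in IgG to 25.3% ± 0.240 in p-UPF1 libraries (SD, n = 3), where it was the most abundant of the 10 by counts. Hyou1 went from 5.39% ± 0.158 to 11.1% ± 0.440, and P4hb from 3.37% ± 0.0931 to 7.80% ± 0.271. Dnajb11 rose less, from 3.46% ± 0.177 to 3.95% ± 0.133.

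Within the same sum, Hspa5 went from 23.4% ± 0.293 in IgG to 16.2% ± 0.137 in p-UPF1 libraries, and Pdia3 from 8.46% ± 0.153 to 4.51% ± 0.0831. Against IgG, 4 genes took a higher percent in every p-UPF1 library and 6 a lower one, each with an exact two-sided permutation P of 0.1, the smallest possible. Against input the same 4 were higher and 5 lower, and Hsp90b1, at 16.9% in input and 15.9% in p-UPF1 libraries, overlapped (exact permutation P = 0.4). Dnajb11, lower in p-UPF1 libraries in CPM against both groups, and Canx, lower against input, thus took a larger share of this smaller sum.

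**Figure D3:**
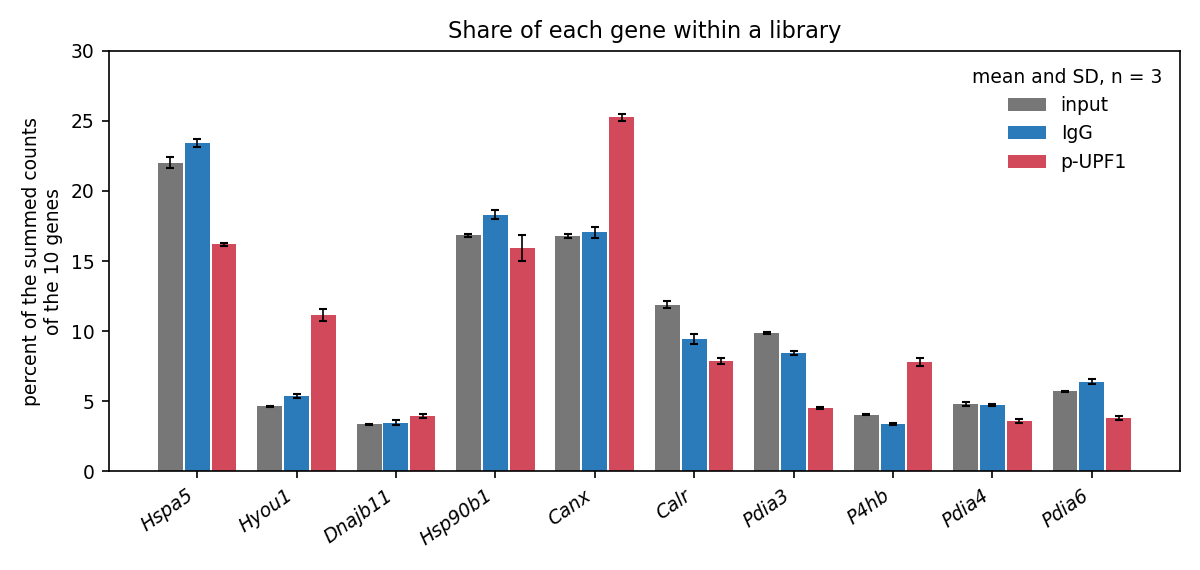
Percent of the summed counts of the 10 genes taken by each gene, as mean and SD of 3 input (grey), 3 IgG (blue) and 3 p-UPF1 (red) libraries. In p-UPF1 libraries Canx reached 25.3%, Hyou1 11.1% and P4hb 7.80%, all above the other groups, while Hspa5 dropped to 16.2%.

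Features of the annotated mRNAs that bear on NMD were counted beside those of the other genes. In GENCODE transcripts on GRCm38, a last exon junction more than 50 nt after the stop codon was found in 0 of the 10 main transcripts and in 0.321% of 11842 tested genes with a coding transcript. The main transcript was taken only from those that GENCODE classes as protein coding, which leaves out its NMD class. This count therefore cannot show such a junction in a transcript of that class. Only in Dnajb11 did the last junction follow the stop codon at all, by 28 nt, as it did in 3.87% of the tested genes. An upstream ATG in the 5′ UTR was present in 2 of the 10, P4hb and Hyou1, against 49.9% of the tested genes. Those 2 are the genes that were higher in p-UPF1 libraries, which was noticed after their values were known and carries no test. At least 1 transcript that GENCODE classes as subject to NMD was listed for Hspa5, Pdia3 and Hyou1, against 29.4% of genes, and a transcript with a retained intron for 6 of the 10, against 60.1%. The read counts do not separate transcripts.

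In length the 10 mRNAs lay near the other genes. The median 5′ UTR was 165 nt (169 nt over all tested genes), the median coding length 1653 nt (1395 nt) and the median 3′ UTR 841 nt (986 nt). Canx had the longest 3′ UTR of the 10, at 2321 nt, followed by Hyou1 at 1319 nt, and Hsp90b1 the shortest at 262 nt. Across the 10 genes, Spearman's rho between 3′ UTR length and the log2 fold change over IgG was 0.46, and across all 11842 genes it was 0.32. This was the largest rho of the features compared. It was 0.333 for coding GC percent (0.165 over all genes), 0.224 for coding length (0.126) and 0.127 for 5′ UTR length (0.076). These are descriptions across genes, which share the same libraries and are not independent replicates.

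Some of the 10 genes overlap others. Hspa5 (chr2:34772090-34776529, plus strand) overlaps Rabepk, and Pdia3 (chr2:121413902-121438687, plus strand) overlaps Catsper2, both on the opposite strand. Whether counting used strand is not stated for these libraries, so reads of such a pair cannot be told apart. The counts assigned to Rabepk were at most 3.48% of those of Hspa5 in any group, and those of Catsper2 at most 3.73% of those of Pdia3. Pdia6 (chr12:17266589-17284785, plus strand) overlaps Atp6v1c2, at most 0.104% of its counts, Pdia4 (chr6:47796141-47813512, minus strand) holds Mir704 on its own strand, at most 0.157% of its counts, and Dnajb11 (chr16:22857845-22879634, plus strand) overlaps Gm30505, which was not in the table. None of the mRNAs had another genomic match of 95% identity or more, and the closest was a 91.6% match over 1051 nt of Calr at chr2:140955230-140956249.

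The other genes of the pathway were counted in lists. Over all genes tested, 42.2% were lower and 40.4% higher over IgG, and 42.6% were lower and 40.8% higher over input. The criterion for binding was met by 6.25%. Of 36 further ER folding enzymes and cochaperones, 33 were tested, and in p-UPF1 against IgG libraries 20 were lower, 11 higher and 2 not called, with a median log2 fold change of -0.27. Tmx2, a membrane thioredoxin, had the highest value at 2.78 (SE 0.052) and was the only one of them to meet the criterion for binding. Serp1, which stabilises membrane proteins under stress, followed at 1.71. Ppib, the ER cyclophilin that works on prolines, was the lowest at -2.76, with Prdx4, an ER peroxidase that feeds disulfide formation, at -2.57.

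Of 28 genes for ER translocation and N-glycosylation, 21 were lower in p-UPF1 than in IgG libraries, 6 higher and 1 not called, with a median of -1.04. Ssr3, a subunit of the translocon-associated complex, was highest at 1.92, followed by Srprb, a subunit of the receptor for the signal recognition particle, at 0.96. Ost4, a small subunit of the oligosaccharyltransferase, was lowest at -3.53, next to Sec61g, a subunit of the translocation channel, at -3.43. Chaperones outside the ER were mostly lower. In the cytosol and mitochondria 24 of 26 fell, 1 rose and 1 was not called, with a median of -1.47. Dnaja3 was highest at 1.12, and Dnajb1, at 0.07, was the one not called. The mitochondrial cochaperonin Hspe1 was lowest at -3.51, and Cct8, a subunit of the cytosolic chaperonin, stood at -2.33.

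The regulators of the unfolded protein response, which control the transcription of the chaperones or adjust translation under ER stress, had a median of 1.13 over IgG. Of 12 such genes 8 rose and 4 fell, and 3 met the criterion for binding (Ddit3, Ppp1r15a and Trib3). Trib3, a pseudokinase induced by stress, had the highest value at 2.43, and Ddit3 (CHOP) reached 2.39. Xbp1, a transcription factor that acts on chaperone genes, was among the lowest at -0.82, and Atf6b at -0.87. Against input the counts were 12 higher, 20 lower and 1 not called for further ER folding genes, 5 higher and 23 lower for translocation and glycosylation, 1 higher and 25 lower for chaperones outside the ER, and 8 higher and 4 lower for the regulators. No test set the 10 genes against these lists.

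**Figure D4:**
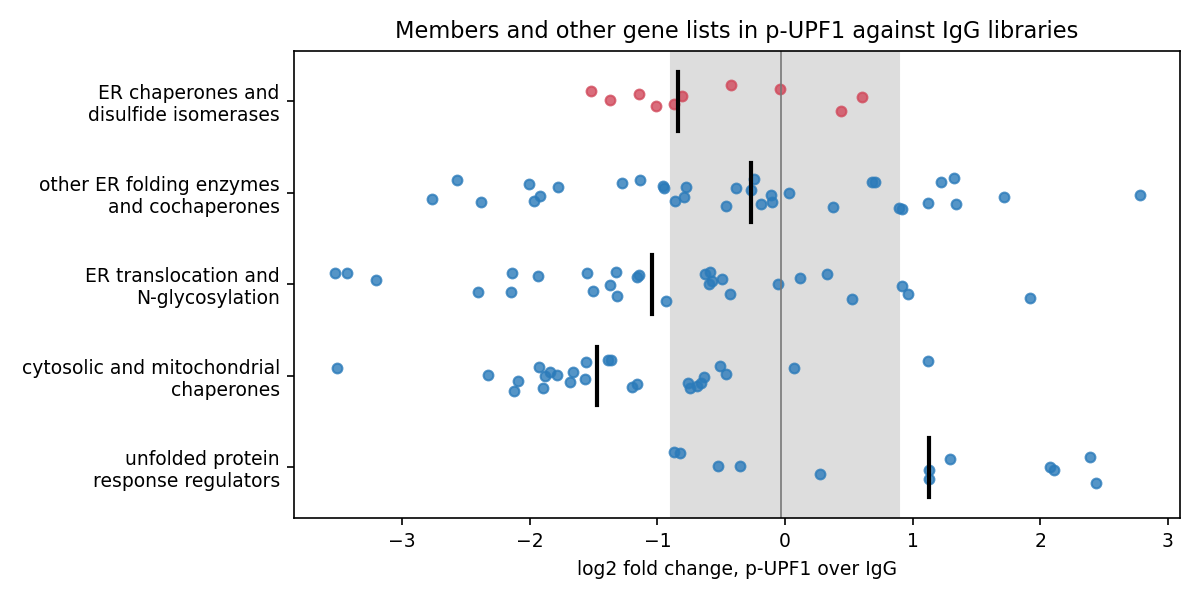
Log2 fold change of p-UPF1 over IgG for each tested gene of 5 lists, with the 10 ER chaperones and disulfide isomerases in red and other lists in blue, where black bars are list medians, the grey line is the median of all genes tested and the shaded band spans their middle 50 percent (-0.89 to 0.90). Medians run from -1.47 for chaperones outside the ER to 1.13 for unfolded protein response regulators, with -0.84 for the 10 genes.

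The genes whose pattern over the 9 libraries lay nearest to the median pattern of the 10 genes came from 4924 candidates with a mean of at least 50 CPM. They were Septin6, H2-D1, Tax1bp1, D8Ertd738e and Vdac1, at Euclidean distances of 0.14 to 0.17 on the log2 CPM scale. Among the 10 themselves, Hsp90b1 lay closest to that median pattern (0.21), and P4hb (1.87) and Hyou1 (1.97) lay farthest from it.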

How the data were processed

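Activated splenic B cells gave 3 input, 3 IgG and 3 p-UPF1 libraries. The authors deposited a table of unscaled read counts, 1 column per library, and their processing notes name cutadapt, HISAT2, featureCounts and mm10 without versions; the strand setting for these libraries is not given in the sources used here. Columns were assigned to groups by name, and since they carry letters where the labels carry numbers, the reported fit did not pair libraries. Counts hold no molecular identifiers.

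Genes were kept by edgeR's filterByExpr (minimum count 10, minimum total 15; 99.9% of counts in 13129 genes), scaled by TMM, which assumes that most genes do not change (82.6% and 83.4% of genes were called in the p-UPF1 contrasts, in nearly equal numbers up and down), and fitted to all 9 libraries without covariates (edgeR 4.0.16, R 4.3.3; 6 residual degrees of freedom). Each contrast was tested by the two-sided quasi-likelihood test with Benjamini-Hochberg adjustment over all genes tested, and a call is an adjusted P under 0.05. A prior count of 0.125 enters each log2 fold change. The fit was also run on simulated counts with few genes changed and 1 spread common to all genes. Most genes were called in the p-UPF1 contrasts of the real data, so that run does not measure error rates here. Shares of counts were compared by exact permutation tests. DESeq2 (1.42.0), limma-voom (limma 3.58.1), other scalings and filters, and leaving out each library were tried as alternatives.

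Symbols and promoters came from RefSeq and transcripts from GENCODE M21, both on GRCm38, and 25275 identifiers matched a RefSeq symbol. Copies were sought with minimap2 (2.31). Named genes were the 10 members, the 2 highest and 2 lowest over IgG of each list at a mean of at least 10 CPM, and the 5 nearest genes by pattern; further list genes are named where they met the criterion for binding or, for Irf4 and Adgre1, make up nearly all of a marker sum, chosen after their values were seen. The members and lists were chosen with earlier results of these data known.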

Additional observations from a re-analysis of the deposited data

How the results depend on the processing

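The 30 log2 fold changes of the 10 genes in 3 contrasts were recomputed under 22 alternatives each, 9 of which left out a library. Of the 660 values, 617 kept their direction and their side of the threshold, 19 lost their call, 4 gained one and 20 changed sign. No value called in the reported fit changed sign. No member met the criterion for binding under any alternative run. The highest log2 fold changes under the 22 alternatives were 0.653 over IgG (P4hb) and 0.564 over input (Hyou1). The fold change limits of 1 and 2 alone therefore set this outcome. The cause of the changes was not tested.

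Of the 20 changes of sign, 19 were in IgG over input. Hyou1 was called higher there by 0.109 with library totals alone, by 0.1 with an input library as the TMM reference, by 0.093 when an IgG library was that reference, and by 0.1 with only the 2 groups fitted, so that in each of these 4 settings 1 gene was higher in IgG than in input. The other 16 values passed in neither fit. For Hyou1 they were 0.063 with upper-quartile factors, 0.023 with DESeq2 and 0.023 with its size factors, 0.081 without the low-count filter, 0.003 with at least 1 CPM in 3 libraries and 0.001 without IgG library C (-0.031 to 0.001 over the libraries left out). For Pdia6 they were 0.059 with library totals alone, 0.013 with upper-quartile factors, 0.05 with the input reference, 0.043 with the IgG reference, 0.031 without the filter and 0.05 with the 2 groups, and for Hsp90b1 0.012 with totals alone, 0.004 with the input reference and 0.004 with the 2 groups. Canx over IgG was 0.003 without the filter. The number of genes lower in IgG was 4 with library totals alone and 4 with an input library as the reference, against 7. Hspa5 and Dnajb11 lost their IgG over input call in all 4 settings where Hyou1 gained one and without the filter, Hspa5 also with upper-quartile factors, and Canx with totals alone and the input reference. The number of genes higher in p-UPF1 than in input was 1 rather than 2 with library totals alone, with upper-quartile factors and at an adjusted P under 0.01, and ranged from 1 to 2 when libraries were left out; P4hb was the gene lost. The summed level of the 10 genes differed by -0.61 (log2) between p-UPF1 and IgG in TMM-normalised CPM and by -0.614 as a mean of log2 CPM, against -0.772 as a share of counts. Between IgG and input it differed by -0.221 and -0.241, against -0.106. With library totals alone the median gene moved by -0.16 in p-UPF1 over IgG and by 0.12 in IgG over input. Of all calls in IgG over input, 45.1% to 52.6% were higher with library totals alone, upper-quartile factors, a TMM reference taken from input or from IgG, or no low-count filter, against 34.4%.

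The count columns carry the same letters A, B and C in each group, and no source says that a letter marks a shared lysate. Deviations from the group means of libraries with the same letter correlated at -0.005 to 0.054 over all genes tested, and not every library correlated best with its own letter. With the letter as a replicate block, an alternative chosen after seeing the data, no call of the 10 genes changed (7 lower and 2 higher over IgG, 8 and 2 over input, 7 and 0 in IgG over input), and 10875, 11002 and 7094 genes were called in the 3 contrasts, against 10845, 10952 and 6950. Blocking on the labels' replicate numbers was not run, because no column is tied to one. Depth did not limit these genes, whose lowest count in any library was 2651, whereas 3 libraries per group cannot bring an exact permutation P below 0.1.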

Other observations

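Of the 6 B cell markers used to check the cells, 2 were higher, 3 lower and 1 not called in p-UPF1 against IgG libraries (edgeR with Benjamini-Hochberg), with a median log2 fold change of -0.16. Cd22, an inhibitory receptor of the B cell surface, was the highest over IgG, at 148 ± 3.91 CPM (SD, n = 3) in IgG libraries and 306 ± 4.03 in those of p-UPF1, a log2 fold change of 1.04. Ms4a1 (CD20) was the other one higher over IgG, at 0.21, but it was lower over input, at -0.73. Cd79a and Cd79b encode the paired signalling chains of the B cell receptor. Cd79a stood at 140.4 ± 8.31 CPM in IgG and 32.8 ± 0.305 in p-UPF1 libraries, a log2 fold change of -2.10, while that of Cd79b was -0.42. The difference between them was not tested.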
